A study of Homo sapiens with 9 samples.

Results

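The transcripts of 25 amino acid carriers and 8 enzymes of glutamine and glutamate metabolism were read in HepG2 cells, a human liver cancer line, after knockdown of TRIB3. Members were taken by gene symbol from the carrier families SLC1, SLC3, SLC7, SLC36, SLC38 and SLC43 and from the enzymes around glutamine, which gave 33 of the 24204 symbols in the table. A low-value filter, an FPKM of 1 or more in 3 or more of the 9 libraries, kept 29 of these 33 genes among the 11265 genes tested in all. FPKM is the number of sequenced fragments scaled for gene length and for library depth.

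The 9 RNA-seq libraries formed 3 groups of 3. All cells were infected with lentivirus for 48 h and then selected with puromycin for another 48 h, so that the controls had also met virus and drug. shCtrl cells carried a control hairpin, and shTRIB3-1 and shTRIB3-2 cells each carried a different hairpin against TRIB3, a pseudokinase induced when amino acids run short. By the labels the medium was high-glucose DMEM with fetal bovine serum, and no glutamine withdrawal is named for these libraries, and the study's discussion likewise speaks of TRIB3 depletion in cells that had kept their glutamine. A methods passage shared by several RNA-seq sets describes Gln-deprived cells and another library kit, so the sources differ on the medium, and the labels are followed here. A hairpin lowers a transcript without removing it. The labels do not say that replicates were separate cultures, so the p-values measure only the spread between these samples.

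Glutamine enters cells through sodium-coupled carriers such as SLC1A5 and the SLC38 family. Exchangers built from the heavy chain SLC3A2 and an SLC7 light chain then trade intracellular amino acids for leucine, arginine and other substrates. Inside the cell glutaminases release glutamate, GLUL turns glutamate back into glutamine, and GLUD1 and the transaminases move the nitrogen of glutamate to or from other compounds. In liver these steps feed the urea cycle and ammonia disposal. Many of these genes are known targets of ATF4, the transcription factor of the amino acid starvation response, which also drives TRIB3, and TRIB3 protein is known to bind ATF4.

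The hairpin targets are shown because they define the perturbation; capitals mark the whole 21-base target. Both were found in the coding part of TRIB3 (GENCODE transcripts on GRCh38). The shTRIB3-1 target lies in exon 2 of 4 at chr20:388072-388092, plus strand, and was found in 4 of 4 TRIB3 transcripts. The shTRIB3-2 target lies in exon 3 at chr20:391473-391493 and was found in 3 of 4.
shTRIB3-1: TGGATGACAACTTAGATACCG
shTRIB3-2: GCCGTGCTCTTCCGCCAGATG

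TRIB3 itself stood at 67.9, 65.8 and 66.6 FPKM in the shCtrl libraries. It fell to 34.1, 32.7 and 34.0 in shTRIB3-1 and to 20.6, 20.7 and 20.4 in shTRIB3-2, so the groups did not overlap and 50.3% and 30.8% of the control mean remained. By limma the log2 fold changes were -0.99 (adjusted p 5.3e-11) and -1.70 (adjusted p 5.39e-13), and the hairpins differed from each other by -0.71 (adjusted p 9.54e-09). The libraries held 34206726 to 36311029 fragments, a ratio of 1.06, and mitochondrial protein-coding genes took 5.57% ± 0.463 of them in shCtrl, and 6.59% ± 0.373 and 6.78% ± 0.388 with shTRIB3-1 and shTRIB3-2 (SD, n = 3 each), a share whose part in the results was not tested. Of the marker genes checked, 12 of 12 for hepatocytes were at 1 FPKM or more in every library. Endothelial and fibroblast markers were all under 1 FPKM, PTPRC of blood cells was at or near 0, and CD68 was the exception among blood markers at 28.9 to 38.9 FPKM. Of the bile duct markers KRT7 was near 0, while EPCAM and SOX9 were expressed, and the list summed to 166.8 to 201.9 FPKM. In bulk RNA, fewer cells of a kind and less RNA per cell cannot be told apart.

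Levels of the members spanned a wide range. FPKM is per length and can be set side by side between genes, although composition and mappability still differ between them. The order also depends on the gene length behind each value. For SLC36A1 that length was 16719 bases, where its GENCODE exons cover 6971, and for GLUD1 it was 3868 against 14283. In shCtrl the most abundant were GLUD1, mitochondrial glutamate dehydrogenase, at 232 ± 8.48 FPKM, and SLC38A2, a sodium-coupled carrier of small neutral amino acids including glutamine, at 218 ± 9.42 (SD, n = 3 each). Their libraries overlapped, at 222 to 238 and 208 to 226. Below them came the aspartate transaminases GOT1 and GOT2 at 125 ± 3.62 and 83.9 ± 0.562, then SLC3A2 at 64.5 ± 1.04 and SLC7A5 at 54.0 ± 3.25. A run of 5 genes from OAT (36.8) to SLC38A3 (32.3) followed, in the order OAT, GLUL, SLC1A5, GFPT1 and SLC38A3. OAT libraries lay above the rest, each later neighbour in that order overlapped the next, and GLUL and GFPT1 did not overlap. At the other end of the tested members stood SLC36A1 and SLC36A4 at 1.82 ± 0.113 and 1.75 ± 0.125, and SLC7A7 at 0.212 ± 0.0713.

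**Figure D1:**
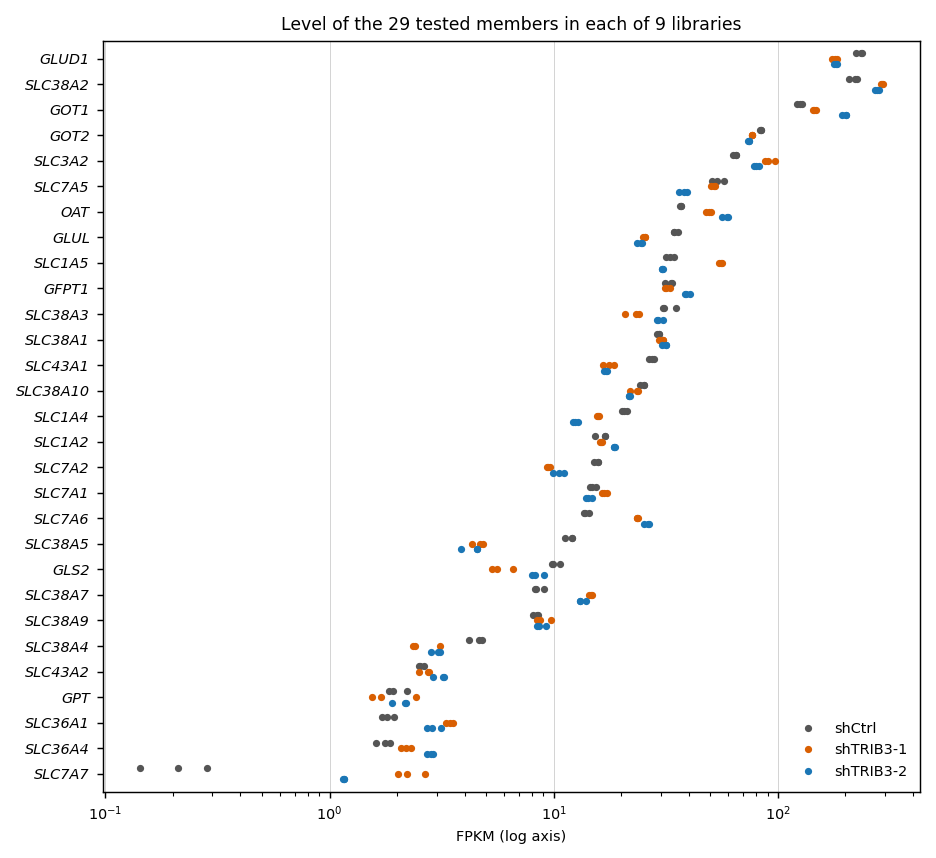
FPKM (log axis) of the 29 tested members in each of 9 libraries, with genes ordered by their shCtrl mean and 1 point per library. Points of a group sit close together for most genes, GLUD1 and SLC38A2 lead in shCtrl, and SLC7A7 is the member whose control points lie farthest from those of both knockdowns.

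The 4 members below the filter were close to absent. SLC1A1, a glutamate carrier of neurons and kidney, had 1 fragment in 1 library of the 9. SLC3A1, the heavy chain of the cystine carrier of kidney, had 0 to 8 fragments in any library, and a same-strand gene covers 26.9% of its exon bases. SLC7A8, a light chain of kidney and gut, had 0 to 2 fragments. SLC1A3, a glutamate carrier of glia, had 0 to 6 fragments in shCtrl, 2 to 4 in shTRIB3-1 and 8 to 12 in shTRIB3-2. In the limma fit without a filter SLC1A3 was higher with shTRIB3-2 by 0.46 on the log2 scale (adjusted p 0.00995), a difference of a few fragments.

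Members moved in both directions after knockdown. With shTRIB3-1, 11 of the 29 tested members were higher and 11 lower at an adjusted p under 0.05 (limma over all tested genes), while 32.9% of all tested genes were higher and 41.5% lower by that rule. With shTRIB3-2, 13 were higher and 12 lower, beside 35.4% and 40.5% of all tested genes. The stricter call, which also asks for an absolute log2 fold change above 1, took 1 member up and 1 down with each hairpin. These were SLC7A7 and SLC38A5, beside backgrounds of 5.39% higher and 6.1% lower with shTRIB3-1 and 6.06% and 6.27% with shTRIB3-2. SLC7A7, the only member called higher, passed the low-value filter only through the knockdown libraries, so a difference was built into its being tested. The median log2 fold change of the tested members was -0.01 with shTRIB3-1 and 0.07 with shTRIB3-2, where that of all tested genes was -0.06 and -0.03. All fold changes are on the log2(FPKM + 0.1) scale, which understates the change of low genes.

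Both comparisons rest on 1 set of 3 control libraries, so their values stand side by side and are not independent repeats. Higher with each hairpin were SLC3A2, SLC7A6, SLC7A7, SLC38A2, SLC38A7, SLC36A1, SLC36A4, GOT1 and OAT. Lower with each were SLC1A4, SLC7A2, SLC38A4, SLC38A5, SLC38A10, SLC43A1, GLS2, GLUL, GLUD1 and GOT2. SLC1A5 alone was higher with one and lower with the other. SLC38A9 and GPT passed with neither, and the remaining tested members passed with 1 hairpin only. Of the 21 tested carriers, 9 were higher and 7 lower with shTRIB3-1 and 10 and 8 with shTRIB3-2. Of the 8 enzymes, 2 were higher and 4 lower with shTRIB3-1, and 3 and 4 with shTRIB3-2. Beside both lists, 32.9% of all tested genes were higher and 41.5% lower with shTRIB3-1, and 35.4% and 40.5% with shTRIB3-2.

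**Figure D2:**
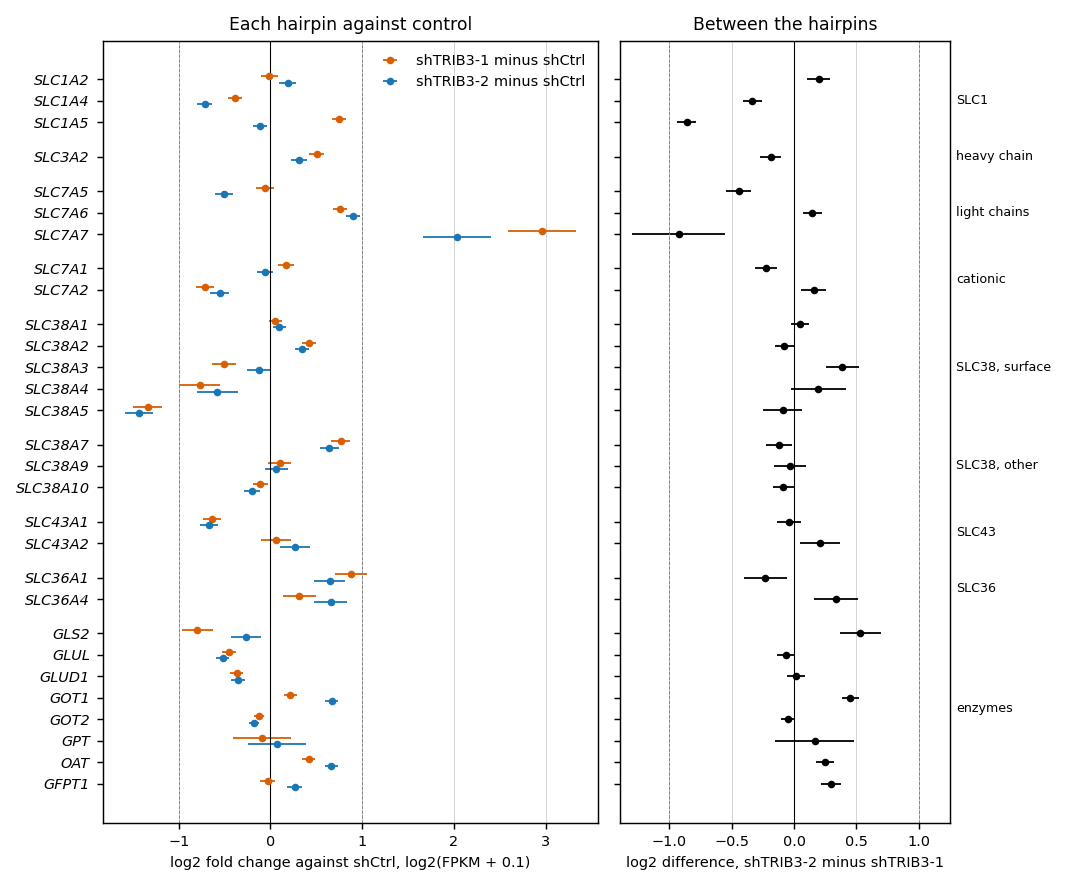
Log2 fold changes of the 29 tested members with 95% confidence intervals from limma, on the log2(FPKM + 0.1) scale, for each hairpin against shCtrl (left) and for shTRIB3-2 minus shTRIB3-1 (right). Dashed lines mark a log2 fold change of 1 in either direction, which SLC7A7 and SLC38A5 pass on the left and no member passes on the right.

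Promoter sequence was searched because these genes moved in several directions and many are described as ATF4 targets. RefSeq windows on GRCh38.p14, from 250 bases before to 50 bases after a start site, were at hand for 28 of the 33 members. The C/EBP-ATF response element was searched as TGATGNAAN and the E-box as CACGTG, each on both strands. The former occurred in a window of 7 of the 28 members (25%) and of 4.45% of all 27305 genes. The E-box occurred in 8 of the 28 (28.6%) and in 8.77% of all genes. All genes here means every symbol with a window, tested or not, so these shares are not matched for expression. Members had more windows per gene than other genes, and counted by window the shares were 14.0% of 50 member windows against 3.61% of all 35116 for the former and 16.0% against 7.26% for the E-box. Those 7 were SLC1A3, SLC1A4, SLC1A5, SLC3A2, SLC7A1, SLC38A1 and GOT1. Among them GOT1 and SLC3A2 were higher with each hairpin, SLC1A4 was lower, SLC1A5 moved both ways and SLC1A3 was below the filter. SLC7A1 was higher with shTRIB3-1 alone and SLC38A1 with shTRIB3-2 alone. A match is a description of these letters and not a site shown to be bound. A selection of the stretches that lie before a start site is shown 5′ to 3′ on the strand of the gene, with the searched letters in capitals; in GOT1 the element reads on the other strand.
GOT1, C/EBP-ATF, chr10:99430800-99430838, minus strand: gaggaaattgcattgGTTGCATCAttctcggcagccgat
SLC1A5, C/EBP-ATF, chr19:46784888-46784926, minus strand: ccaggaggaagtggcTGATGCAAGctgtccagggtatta
SLC7A5, E-box, chr16:87869617-87869652, minus strand: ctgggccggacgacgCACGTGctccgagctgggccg
SLC7A7, E-box, chr14:22816076-22816111, minus strand: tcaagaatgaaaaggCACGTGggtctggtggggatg
SLC43A1, E-box, chr11:57515794-57515829, minus strand: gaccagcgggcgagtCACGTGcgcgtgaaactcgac
SLC36A1, E-box, chr5:151447545-151447580, plus strand: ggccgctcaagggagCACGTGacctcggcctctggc
SLC38A5, E-box, chrX:48470446-48470481, minus strand: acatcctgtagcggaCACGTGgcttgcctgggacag

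Counted from a start site to the first capital, these positions were -199 in GOT1, -97 in SLC1A5, -130 in SLC7A5, -225 in SLC7A7, -112 in SLC43A1, -43 in SLC36A1 and -206 in SLC38A5, where negative positions lie before the start. SLC36A1 held another E-box close to its start, and SLC38A7 held one just after. Of these members SLC7A7, SLC36A1 and SLC38A7, each with an E-box, were higher with each hairpin, and SLC43A1 and SLC38A5, also with one, were lower. SLC7A5 was lower with shTRIB3-2 alone. SLC1A5 and SLC7A8 held an E-box too, and of these SLC1A5 moved both ways and SLC7A8 was below the filter.

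SLC1A5, the exchanger through which many tumor cells take up glutamine, gave opposite results with the hairpins (chr19:46774883-46788594, minus strand, GRCh38). It stood at 32.9, 34.5 and 31.7 FPKM in shCtrl, at 56.1, 54.4 and 55.9 with shTRIB3-1 and at 30.4, 30.6 and 30.4 with shTRIB3-2. Every shTRIB3-1 library was above every other library, and the shTRIB3-2 libraries lay just under the controls without overlap. In limma shTRIB3-1 gave a log2 fold change of 0.75 (SE 0.0348, adjusted p 1.75e-09), and shTRIB3-2 gave -0.12 (adjusted p 0.00922). The small fall did not pass when libraries were centred on their medians (-0.06, adjusted p 0.166) or without shCtrl replicate 2 (-0.08, adjusted p 0.0527). Of the SLC1A5 exon bases 23.8% are overlapped on the opposite strand, and whether counting used the strand is not given in the sources used here.

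The other SLC1 carriers moved less. SLC1A4, a carrier of alanine, serine and cysteine, fell from 20.6 ± 0.522 FPKM to 15.8 ± 0.158 and 12.5 ± 0.306 (SD, n = 3 each). Its groups did not overlap, and its log2 fold changes were -0.38 and -0.72 (limma adjusted p 1.03e-06 and 2.84e-09). SLC1A2, the main glutamate carrier of astrocytes, was read at 16.4 ± 0.950, 16.3 ± 0.200 and 18.7 ± 0.140 FPKM. It rose with shTRIB3-2 (0.19, adjusted p 0.00165) and not detectably with shTRIB3-1 (-0.01, interval -0.10 to 0.08).

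SLC3A2, the heavy chain that carries several light chains to the cell surface, rose with each hairpin (chr11:62856004-62888880, plus strand). Its FPKM was 65.3, 63.3 and 64.9 in shCtrl, 87.2, 97.0 and 90.5 with shTRIB3-1 and 78.2, 82.3 and 80.1 with shTRIB3-2. The 3 groups did not overlap. The log2 fold changes were 0.50 and 0.31 (SE 0.0388, limma adjusted p 1.68e-07 and 1.11e-05).

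Its light chains took separate courses. SLC7A5, which imports leucine and other large neutral amino acids in exchange for glutamine, was at 57.5, 53.4 and 51.1 FPKM in shCtrl and 52.6, 52.1 and 50.3 in shTRIB3-1 (chr16:87830023-87869507, minus strand). In shTRIB3-2 it was at 36.3, 38.1 and 39.4. Only the shTRIB3-2 libraries stood apart, with a log2 fold change of -0.51 (SE 0.0451, limma adjusted p 5.7e-07). The value for shTRIB3-1 was -0.06 (interval -0.16 to 0.04, adjusted p 0.234), and rescaling the libraries to TPM gave -0.12 (adjusted p 0.0325) while median centring turned its sign to 0.02.

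SLC7A6, which exchanges arginine and other cationic amino acids for glutamine with sodium, rose from 13.9 ± 0.376 FPKM to 23.5 ± 0.138 with shTRIB3-1 and 26.1 ± 0.657 with shTRIB3-2. The log2 fold changes were 0.76 and 0.90 (limma adjusted p 1.59e-09 and 2.68e-10), without overlap between groups. Opposite-strand genes overlap 55.6% of the exon bases of SLC7A6, and for SLC7A6OS, which lies there, the values were 0.07 and -0.02 (adjusted p 0.394 and 0.78).

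SLC7A7, the related light chain whose loss causes lysinuric protein intolerance, had the largest fold change of the members in either comparison with control (chr14:22773222-22829820, minus strand). It was at 0.285, 0.210 and 0.142 FPKM in shCtrl, from 12 to 24 fragments a library. In shTRIB3-1 it was at 2.22, 2.66 and 2.01, from 165 to 215 fragments, and in shTRIB3-2 at 1.15, 1.16 and 1.15, from 93 to 95. The groups did not overlap, and the log2 fold changes were 2.96 (SE 0.169, limma adjusted p 1.15e-08) and 2.03 (adjusted p 3.06e-07). SLC7A7 passed the filter on low values only through the knockdown libraries, so a difference was built into its being tested. A pseudocount of 1 gave 1.44 and 0.83, the latter short of the fold-change threshold, and limma voom on the recovered fragments gave 3.44 and 2.46.

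The cationic carriers differed from each other. SLC7A1, the widely expressed importer of arginine and lysine, was read at 14.9 ± 0.459, 16.8 ± 0.400 and 14.3 ± 0.470 FPKM. It rose with shTRIB3-1 (log2 0.17, limma adjusted p 0.00194), and the value with shTRIB3-2 was -0.06 (interval -0.14 to 0.03, adjusted p 0.229). SLC7A2, the arginine carrier of liver, fell from 15.5 ± 0.408 to 9.44 ± 0.170 and 10.6 ± 0.580. Its groups did not overlap and its log2 fold changes were -0.71 and -0.55 (adjusted p 3.68e-08 and 3.17e-07).

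Among the sodium-coupled SLC38 carriers of the cell surface, SLC38A2 rose and the less abundant SLC38A4 and SLC38A5 fell with each hairpin. SLC38A2, a starvation-induced carrier (chr12:46358188-46372773, minus strand), was at 208, 226 and 221 FPKM in shCtrl. It was at 292, 290 and 295 in shTRIB3-1 and at 272, 276 and 282 in shTRIB3-2, above every control library. The log2 fold changes were 0.42 and 0.34 (SE 0.0340, limma adjusted p 2.62e-07 and 1.57e-06). SLC38A1, its close relative, was read at 28.8, 29.5 and 29.4 FPKM in shCtrl, 29.4, 30.6 and 30.8 with shTRIB3-1 and 30.5, 31.7 and 31.7 with shTRIB3-2 (chr12:46183063-46270017, minus strand). It passed with shTRIB3-2 alone, at 0.10 (adjusted p 0.0156), and no longer did so after rescaling to TPM (adjusted p 0.0878) or without shTRIB3-2 replicate 3 (adjusted p 0.053). With shTRIB3-1 the value was 0.05 (interval -0.02 to 0.12), and 0.13 after median centring (adjusted p 0.00916).

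SLC38A5, which carries glutamine, histidine and other amino acids in either direction, showed the largest fall of the members (chrX:48458537-48470260, minus strand). Its FPKM was 11.3, 12.1 and 12.1 in shCtrl, 4.33, 4.68 and 4.82 with shTRIB3-1 and 4.57, 3.86 and 4.56 with shTRIB3-2. Control and knockdown libraries did not overlap, and those of the hairpins did. The log2 fold changes were -1.34 and -1.43 (SE 0.0711, limma adjusted p 5.71e-09 and 2.54e-09), which left 39.0% and 36.7% of the control mean.

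The liver-enriched carriers of this group followed in part. SLC38A4 fell from 4.53 ± 0.295 FPKM to 2.63 ± 0.426 and 3.00 ± 0.152 (log2 -0.77 and -0.58, limma adjusted p 1.96e-05 and 0.00021). SLC38A3, which moves glutamine across the hepatocyte membrane in both directions, fell with shTRIB3-1 from 32.3 ± 2.45 to 22.7 ± 1.66 (-0.51, adjusted p 8.31e-06). With shTRIB3-2 it was at 29.6 ± 0.943, a log2 fold change of -0.12 that missed the threshold (interval -0.25 to 0.01, adjusted p 0.0836). That value passed after rescaling to TPM, with limma voom, with the replicate numbers as a block (adjusted p 0.0219), and without shCtrl replicate 3 or shTRIB3-1 replicate 2 (adjusted p 0.0491 and 0.0447).

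Carriers known from lysosomes came next. SLC38A7, which exports glutamine from lysosomes, rose from 8.56 ± 0.459 FPKM to 14.6 ± 0.191 and 13.4 ± 0.466 (log2 0.76 and 0.64, limma adjusted p 1.9e-08 and 7.76e-08). SLC36A1, a proton-coupled exporter of small amino acids, rose from 1.82 ± 0.113 to 3.43 ± 0.132 and 2.91 ± 0.202 (0.88 and 0.65, adjusted p 6.45e-07 and 9.53e-06). Its relative SLC36A4 rose from 1.75 ± 0.125 to 2.20 ± 0.110 and 2.81 ± 0.0919 (0.32 and 0.65, adjusted p 0.0037 and 1.13e-05).

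SLC38A9, the lysosomal arginine sensor upstream of mTORC1, was read at 8.33 ± 0.195, 8.94 ± 0.670 and 8.73 ± 0.414 FPKM. Its groups overlapped, and its log2 fold changes were 0.10 (interval -0.03 to 0.23) and 0.07 (interval -0.06 to 0.19). With shTRIB3-1 the value was 0.18 after median centring or quantile normalization (limma adjusted p 0.014 and 0.0142). SLC38A10 fell from 24.9 ± 0.610 to 23.1 ± 1.04 and 21.7 ± 0.178 FPKM. Its log2 fold changes were -0.11 and -0.20 (adjusted p 0.0205 and 0.000477), and the former did not pass after median centring (-0.03), after quantile normalization (-0.09), or without shCtrl replicate 2 or 3 or shTRIB3-1 replicate 2 (adjusted p 0.0621, 0.0699 and 0.0942).

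Of the sodium-independent SLC43 carriers of large neutral amino acids, SLC43A1 fell with each hairpin and SLC43A2 rose with 1. SLC43A1 went from 27.4 ± 0.826 FPKM to 17.6 ± 1.05 and 17.1 ± 0.255 (log2 -0.63 and -0.67, limma adjusted p 7.52e-08 and 3.56e-08), and control and knockdown libraries did not overlap. SLC43A2 was read at 2.56 ± 0.0722, 2.68 ± 0.154 and 3.11 ± 0.181. It rose with shTRIB3-2 by 0.27 (adjusted p 0.0054), and its value with shTRIB3-1 was 0.06 (interval -0.10 to 0.22).

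The enzymes that make or use ammonia at the ends of the glutamine cycle were lower. GLUD1, which releases ammonia from glutamate (chr10:87050202-87094843, minus strand), was at 222, 235 and 238 FPKM in shCtrl, 181, 174 and 184 with shTRIB3-1 and 182, 178 and 183 with shTRIB3-2. All knockdown libraries lay under all control libraries, with log2 fold changes of -0.37 and -0.36 (SE 0.0340, limma adjusted p 8.61e-07 and 1.12e-06). GLUD2, its near-identical copy, was listed at 0.794 ± 0.124 FPKM in shCtrl, and how shared fragments were divided between the copies is not known. GLUL, glutamine synthetase, fell from 34.9 ± 0.971 to 25.4 ± 0.290 and 24.3 ± 0.566 (-0.45 and -0.52, adjusted p 1.09e-07 and 2.69e-08).

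GLS2, the liver-type glutaminase, fell from 10.1 ± 0.437 FPKM to 5.81 ± 0.683 with shTRIB3-1 and 8.42 ± 0.518 with shTRIB3-2. The log2 fold changes were -0.80 and -0.27 (limma adjusted p 1.22e-06 and 0.00709), and the 3 groups did not overlap. On the opposite strand SPRYD4 shares much of the locus, and 77.1% of the GLS2 exon bases are overlapped. SPRYD4 itself gave values of -0.37 and -0.14 (adjusted p 0.00292 and 0.18), and its part in the GLS2 values was not tested.

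The transaminases went in different directions. GOT1, the cytosolic aspartate transaminase of the malate-aspartate shuttle (chr10:99396870-99430624, minus strand), was at 128, 126 and 121 FPKM in shCtrl, 148, 144 and 143 with shTRIB3-1 and 202, 201 and 193 with shTRIB3-2. The groups formed 3 separate steps, with log2 fold changes of 0.22 and 0.67 (SE 0.0315, limma adjusted p 5.11e-05 and 1.63e-09). GOT2, its mitochondrial partner (chr16:58707131-58734342, minus strand), was at 83.8, 83.3 and 84.4 in shCtrl, 76.7, 76.9 and 76.8 with shTRIB3-1 and 73.7, 74.6 and 74.0 with shTRIB3-2. These are small steps downward without overlap, at -0.13 and -0.18 (adjusted p 0.000597 and 3.41e-05), the former lost after median centring (-0.05, adjusted p 0.22).

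OAT, the mitochondrial ornithine aminotransferase that links ornithine to glutamate and proline (chr10:124397303-124418976, minus strand), rose. It was at 37.0, 36.8 and 36.6 FPKM in shCtrl, 49.1, 47.8 and 50.5 with shTRIB3-1 and 59.2, 56.3 and 59.6 with shTRIB3-2. The 3 groups did not overlap, and the log2 fold changes were 0.42 and 0.66 (SE 0.0329, limma adjusted p 2.15e-07 and 2.53e-09). GPT, alanine aminotransferase, was read at 1.99 ± 0.192, 1.89 ± 0.475 and 2.09 ± 0.166 with overlapping groups. Its values of -0.09 (interval -0.41 to 0.22) and 0.07 (interval -0.24 to 0.39) did not pass, except for the former without shTRIB3-1 replicate 1 (-0.28, adjusted p 0.0433).

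GFPT1, which spends glutamine at the entry of the hexosamine pathway (chr2:69319780-69387250, minus strand), was at 31.3, 33.5 and 33.4 FPKM in shCtrl and 31.4, 31.8 and 32.9 in shTRIB3-1. In shTRIB3-2 it was at 40.4, 38.7 and 38.9, above all others. In limma shTRIB3-2 gave a log2 fold change of 0.26 (SE 0.0368, adjusted p 3.19e-05), and shTRIB3-1 gave -0.03 (interval -0.11 to 0.05).

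**Figure D3:**
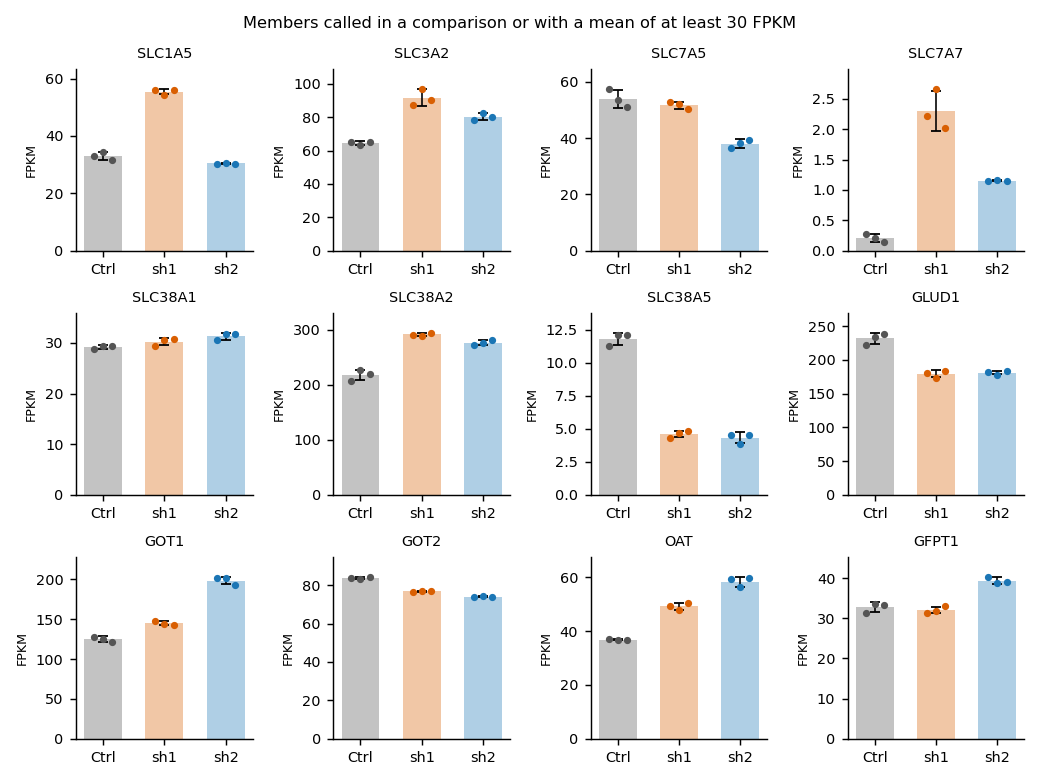
FPKM in each library (points) with the group mean (bars from 0) and SD (error bars, n = 3) for the 12 members called in a comparison or with a mean of at least 30 FPKM. Ctrl, sh1 and sh2 stand for shCtrl, shTRIB3-1 and shTRIB3-2, and SLC1A5 is high in sh1 only while SLC7A5, GOT1 and GFPT1 set sh2 apart.

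Direct comparison of the hairpins tested where they differed. In shTRIB3-2 against shTRIB3-1, 10 members were higher and 7 lower at an adjusted p under 0.05, beside 25.1% and 20.7% of all tested genes, and 12 passed in neither direction. No member passed the fold-change threshold as well, beside 0.284% of tested genes higher and 1.79% lower. Without shTRIB3-1 replicate 3 the number was 1, SLC7A7 at -1.01. The median difference was -0.03, and 0.03 over all tested genes.

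The largest differences between the hairpins were in SLC7A7 and SLC1A5, both lower in shTRIB3-2, by -0.93 (limma adjusted p 0.000867) and -0.86 (adjusted p 5.81e-09). SLC7A5 and SLC1A4 were also lower in shTRIB3-2, by -0.44 (adjusted p 1e-05) and -0.33 (adjusted p 1.72e-05). GLS2 (0.53, adjusted p 0.000152), GOT1 (0.45, adjusted p 4.86e-07), SLC38A3 (0.39, adjusted p 0.000279), SLC36A4 (0.34, adjusted p 0.00487) and GFPT1 (0.30, adjusted p 5.14e-05) were higher in it. The other differences that passed were 0.25 or less in size. They were SLC1A2, SLC7A2, SLC7A6, SLC43A2 and OAT higher in shTRIB3-2, and SLC3A2, SLC7A1 and SLC36A1 lower. SLC7A2 did not pass without shTRIB3-2 replicate 1 (adjusted p 0.0698). SLC36A1 did not after rescaling to TPM (adjusted p 0.0772), without a filter (0.0542), or without replicate 1 or 2 of either hairpin (0.0727 to 0.0942), nor SLC43A2 without a filter (0.0598), with only the 2 groups in the fit (0.0597), or without shCtrl replicate 2, shTRIB3-1 replicate 1 or 3 or shTRIB3-2 replicate 1 or 3 (0.0503 to 0.137).

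The interval of the difference was narrow for several members that did not pass. It ran from -0.06 to 0.09 for GLUD1, from -0.14 to 0.06 for SLC43A1, from -0.14 to 0.01 for GLUL and from -0.11 to 0.003 for GOT2, although GLUL passed after median centring (-0.09, limma adjusted p 0.0367). For SLC38A2 it ran from -0.15 to -0.004 (adjusted p 0.0795), a difference that passed without shCtrl replicate 1 (adjusted p 0.0307) and with limma voom (0.0201). SLC38A7 stood at the threshold (-0.12, adjusted p 0.05) and passed under several alternatives, among them leaving out shCtrl replicate 1 or shTRIB3-2 replicate 3. SLC38A10 passed after median centring (adjusted p 0.0331), after quantile normalization (0.0323) and without shTRIB3-1 replicate 2 (0.0179), SLC38A4 without shTRIB3-1 replicate 3 (0.0103) and GPT without shTRIB3-1 replicate 1 (0.0287).

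Ratios taken within a library do not depend on its depth or scaling. They were chosen after the values were seen and are given as a description, with 3 libraries per group. The ratio of SLC7A5 to SLC7A6 FPKM, light chains that share the heavy chain SLC3A2, was 3.88 ± 0.154 in shCtrl, and 2.20 ± 0.0643 and 1.46 ± 0.0665 with shTRIB3-1 and shTRIB3-2 (SD, n = 3 each). The groups did not overlap. SLC3A2 relative to the summed FPKM of its light chains SLC7A5, SLC7A6, SLC7A7 and SLC7A8 was 0.949 ± 0.0474, 1.18 ± 0.0641 and 1.23 ± 0.0404, with overlap between the hairpins only.

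Other pairs shifted in the same way with each hairpin. SLC38A2 to SLC38A1 went from 7.47 ± 0.231 to 9.66 ± 0.231 and 8.84 ± 0.127. GOT1 to GOT2 went from 1.49 ± 0.0506 to 1.89 ± 0.0328 and 2.68 ± 0.0636. In each of these ratios no group overlapped another. The summed FPKM of the 33 members was 1162 ± 12.3, 1223 ± 9.06 and 1233 ± 6.12, and SLC38A2 made up 36.1% ± 1.27, 41.3% ± 0.275 and 42.8% ± 0.181 of the sum over the 25 carriers.

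**Figure D4:**
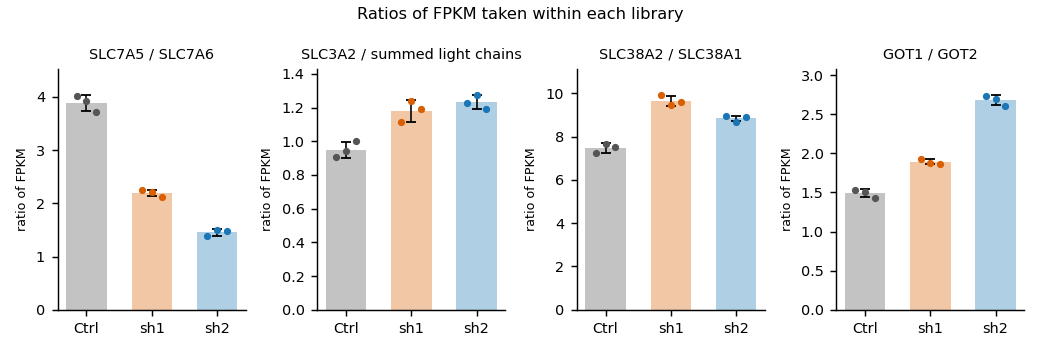
Ratios of FPKM taken within each library (points), with group means (bars from 0) and SD (error bars, n = 3); Ctrl, sh1 and sh2 stand for shCtrl, shTRIB3-1 and shTRIB3-2. SLC7A5 to SLC7A6 falls in steps from 3.88 to 2.20 and 1.46, and the other 3 ratios are higher in each knockdown than in control.

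A further list of pathway genes was read beside the members. Of 62 further carriers and enzymes listed, 41 were tested. With shTRIB3-1, 12 were higher and 23 lower at an adjusted p under 0.05 by limma, beside 32.9% and 41.5% of all tested genes. With shTRIB3-2, 13 were higher and 25 lower, beside 35.4% and 40.5%. The stricter call took 2 up and 5 down with shTRIB3-1, beside 5.39% and 6.1% of all tested genes. With shTRIB3-2 it took 4 up and 6 down, beside 6.06% and 6.27%. Of those called up, SLC1A7 and PRODH passed the low-value filter through the knockdown libraries. Of the 27 tested enzymes of this list, 20 were lower with shTRIB3-1 and 21 with shTRIB3-2, beside 41.5% and 40.5% of all tested genes. Their median log2 fold change was -0.40 and -0.33, where that of all tested genes was -0.06 and -0.03. Of the 14 tested carriers, 8 were higher and 3 lower with shTRIB3-1, beside 32.9% and 41.5% of all tested genes. With shTRIB3-2 these were 7 and 4, beside 35.4% and 40.5%. Between the hairpins 13 of the 41 were higher and 8 lower in shTRIB3-2, beside 25.1% and 20.7% of all tested genes. The stricter call took 1 of them, higher, beside 0.284% of all tested genes.

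Genes of serine, pyrimidine and proline synthesis were among those called lower. PSAT1, which uses glutamate to make phosphoserine, fell from 170 ± 2.50 FPKM to 62.4 ± 2.55 and 44.5 ± 1.53 (log2 -1.45 and -1.94, limma adjusted p 1.24e-11 and 8.21e-13). PHGDH, one step before it, fell from 15.5 ± 1.09 to 8.95 ± 0.117 and 5.77 ± 0.218 (-0.78 and -1.41, only the latter called). CAD, which uses glutamine to begin pyrimidine synthesis, fell from 11.6 ± 0.552 to 4.58 ± 0.217 and 4.58 ± 0.262 (-1.32 with each). ALDH18A1, which turns glutamate toward proline and ornithine, fell from 73.3 ± 1.70 to 32.8 ± 0.0626 and 33.5 ± 0.944 (-1.16 and -1.13). ASRGL1, an asparaginase, fell from 9.53 ± 0.815 to 3.19 ± 0.288 and 3.12 ± 0.266 (-1.55 and -1.58).

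Called higher were PRODH and NAGS. PRODH, which degrades proline toward glutamate, was at 0.490 ± 0.126 FPKM in shCtrl, 1.84 ± 0.205 with shTRIB3-1 and 3.87 ± 0.287 with shTRIB3-2, and it passed the filter through the knockdown libraries. Its log2 fold changes were 1.73 and 2.77 (limma adjusted p 3.55e-07 and 4.13e-09), and it differed between the hairpins by 1.04 (adjusted p 0.000123), a difference short of the fold-change threshold without replicate 3 of either hairpin or with a pseudocount of 1. Near-identical copies of PRODH exist in the genome, so its level is uncertain. NAGS, which uses glutamate to make the activator of the urea cycle, rose from 4.86 ± 0.156 to 8.13 ± 0.166 and 10.1 ± 1.32 (0.73 and 1.04, the latter called).

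Among the other carriers, SLC1A7, a glutamate carrier of retina, rose from 0.849 ± 0.160 FPKM to 3.46 ± 0.242 and 3.82 ± 0.186 (log2 1.92 and 2.06, limma adjusted p 1.33e-08 and 5.73e-09). Only 1 control library reached 1 FPKM, so SLC1A7 passed the filter through the knockdown libraries and a difference was built into its being tested. SLC66A1, the lysosomal exporter of cationic amino acids, rose from 7.06 ± 0.598 to 13.9 ± 0.283 and 14.5 ± 0.402 (0.97 and 1.03, the latter called). SLC6A9, a glycine carrier, fell from 5.14 ± 0.270 to 3.44 ± 0.157 and 1.87 ± 0.268 (-0.57 and -1.42, only the latter called). SLC38A11 fell from 3.32 ± 0.370 to 1.22 ± 0.0478 and 2.28 ± 0.142 (-1.37 and -0.52, only the former called).

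**Figure D5:**
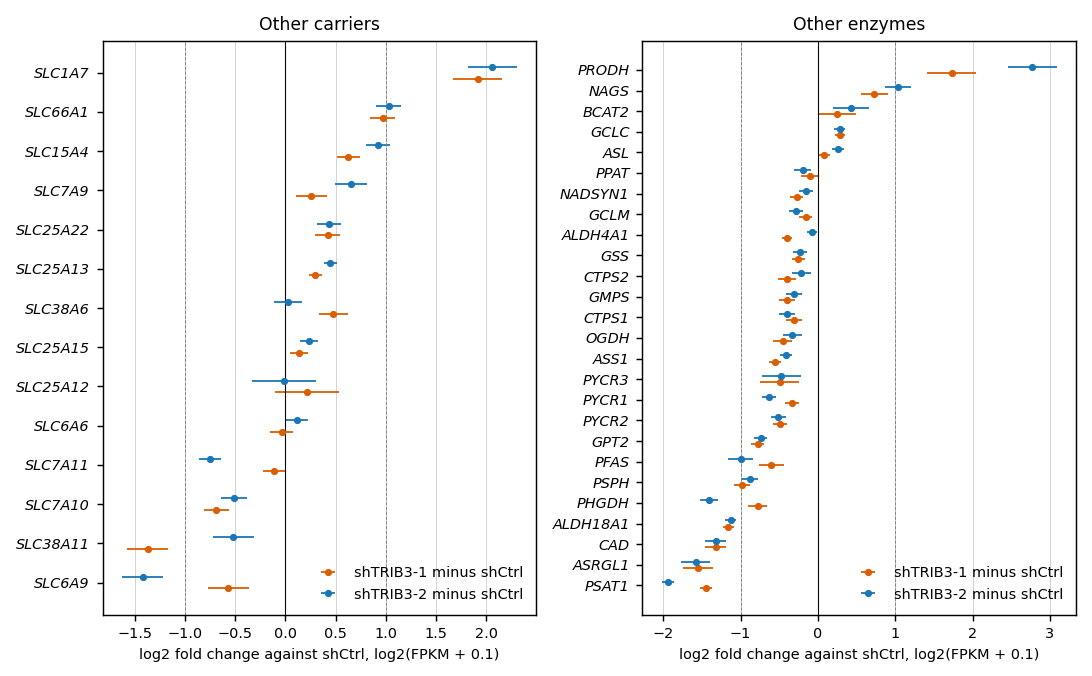
Log2 fold changes with 95% confidence intervals (limma, log2(FPKM + 0.1) scale) of 14 other carriers and 26 other enzymes of the pathway for each hairpin against shCtrl, ordered by the sum of both values. Dashed lines mark a log2 fold change of 1 in either direction; among the enzymes most points lie left of 0, with PRODH far to the right.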

How the data were processed

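Total RNA of 9 HepG2 samples was sequenced. Deposited values are FPKM per gene symbol, computed by the authors for each library after alignment to GRCh38 with STAR, as the methods state; the submitters' processing notes name HTSeq and R 3.2.0. The annotation release and the strand setting of counting are not given in the sources used here. FPKM corrects for depth and length but not for composition. Library totals and fragment numbers were recovered from the FPKM values, since 100% of 172769 values above 0 were within 0.02 of a whole number of fragments. Fragments carry no molecular identifiers, so counting covers counting error only. No pair of replicates agreed within sampling noise (chi-square per degree of freedom 3.13 to 7.54).

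Values were taken as log2(FPKM + 0.1) for 11265 genes with FPKM of at least 1 in at least 3 libraries. Using limma 3.58.1 in R 4.3.3, the 9 libraries entered 1 fit of 3 group means, moderated by empirical Bayes along a mean-variance trend. Tests were two-sided, and p-values were adjusted by Benjamini-Hochberg over all tested genes. A gene passed at an adjusted p under 0.05 and was called with an absolute log2 fold change above 1 as well. The authors used DESeq2, which needs counts. The script was tested on simulated data. Values in every library were given for members called in a comparison or with a mean of at least 30 FPKM, and other pathway genes were named where called. The members, lists and ratios were chosen with earlier results of these data known. Alternatives were a pseudocount of 1, no filter, a filter of 5 FPKM, median centring, TPM, quantile normalization, only the 2 groups compared, a replicate block, limma voom on recovered fragments and leaving out each library. Gene positions come from GENCODE on GRCh38. Some results, among them those of 1 enzyme of the list of other pathway genes that is counted but not drawn, are not reported here.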

Additional observations from a re-analysis of the deposited data

Results flagged for a closer look

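For the following results the hairpins gave different effects by the test of the difference itself, shTRIB3-2 against shTRIB3-1 in limma, at an adjusted p under 0.05. Values are log2 differences, and 25.1% of all tested genes were higher and 20.7% lower by the same rule. TRIB3 was lower in shTRIB3-2 by -0.71. Carriers that were lower in shTRIB3-2 were SLC7A7 at -0.93, SLC1A5 at -0.86, SLC7A5 at -0.44, SLC1A4 at -0.33, SLC36A1 at -0.23, SLC7A1 at -0.23 and SLC3A2 at -0.19. Carriers that were higher in it were SLC38A3 at 0.39, SLC36A4 at 0.34, SLC43A2 at 0.21, SLC1A2 at 0.20, SLC7A2 at 0.16 and SLC7A6 at 0.15. Enzymes that were higher in it were GLS2 at 0.53, GOT1 at 0.45, GFPT1 at 0.30 and OAT at 0.25, and no enzyme among the members was lower.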

How the results depend on the processing

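For single members, 1485 of 1548 values under an alternative kept their direction and their side of the threshold, 24 lost it, 27 gained it and 12 changed sign; the cause was not tested. Sign changes were in values that did not pass. Against shCtrl with shTRIB3-1 these were SLC1A2 (0.0687 with median centring, 0.0103 with quantile normalization, and -0.0599 to 0.0157 without 1 library, above 0 without shCtrl replicate 2 or 3), SLC7A5 (0.0184) and GFPT1 (0.049) with median centring, SLC38A1 with TPM (-0.0048) and GPT (-0.279 to 0.0312 without 1 library, above 0 without shTRIB3-1 replicate 2). Between the hairpins they were SLC38A2 with quantile normalization (0.0784), SLC38A9 (-0.0746 to 0.0262 without 1 library, above 0 without shTRIB3-1 replicate 2) and GLUD1 with median centring (-0.0142) and without 1 library (-0.0081 to 0.0315, below 0 without shTRIB3-1 replicate 2). Members called fell from 2 to 1 with the filter of 5 FPKM, which removes SLC7A7, for each hairpin, and with a pseudocount of 1 for shTRIB3-2. Between the hairpins leaving out 1 library gave 0 to 1. Other pathway genes called with shTRIB3-1 were 12 of 54 tested without a filter and 4 of 32 with 5 FPKM, against 7 of 41. Over all genes, 1085 were called higher and 914 lower of 24204 tested without a filter. With 5 FPKM these were 338 and 407 of 7714, against 607 and 687 of 11265. Between the hairpins, other pathway genes called were 0 with a pseudocount of 1, 2 without a filter, 0 with 5 FPKM and 0 to 1 without 1 library, against 1. The median log2 fold change of members with shTRIB3-1 was 0.0687 with median centring, -0.0656 with TPM and -0.0153 to 0.0312 without 1 library, against -0.01. With shTRIB3-2 it was 0.0284 without a filter, -0.12 with 5 FPKM, 0.12 with median centring, 0.0425 with TPM and 0.0187 to 0.079 without 1 library, against 0.07. Between the hairpins it was 0.024 with quantile normalization, against -0.03. Median centring moved the share of higher against lower genes, to 4408 higher and 3924 lower with shTRIB3-1 where the main values were 3701 and 4678. Same-numbered libraries deviated together only weakly (correlations from -0.07 to 0.09), so the numbers were not read as pairs, and a replicate block gave 22, 26 and 17 members passing in the 3 comparisons, against 22, 25 and 17. Depth limited the members with few fragments, SLC7A7 in shCtrl and the 4 below the filter.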

Other observations

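Some listed pathway genes lay below the filter on low values and so outside the comparisons; they were picked after their values were seen and are given as fragment numbers. SLC6A14, a broad importer of neutral and cationic amino acids, had 38 to 55 fragments in shCtrl libraries, 2 to 3 in shTRIB3-1 and 1 to 3 in shTRIB3-2. SLC16A10, an aromatic amino acid carrier, had 190 to 255, 49 to 66 and 42 to 73. SLC7A14, related to the cationic carriers, had 4 to 11, 50 to 82 and 28 to 40. BCAT1, the cytosolic branched-chain transaminase, had 52 to 58, 142 to 231 and 82 to 101. ASNS, which makes asparagine with the amide of glutamine, had 25 to 38, 24 to 28 and 4 to 7, so that its shTRIB3-2 libraries stood under all others. In the limma fit without a filter the log2 fold changes with shTRIB3-1 and shTRIB3-2 were -1.76 and -1.82 for SLC6A14, -1.38 and -1.42 for SLC16A10, 1.26 and 0.71 for SLC7A14, 1.19 and 0.47 for BCAT1, and -0.11 and -1.28 for ASNS. Adjusted p values were under 0.05 for all of these except BCAT1 with shTRIB3-2 (0.063) and ASNS with shTRIB3-1 (0.611). As the genes were picked by their values, these p values are a description and not a test. Other listed genes below the filter also passed in that fit, among them GFPT2, SLC6A19 and SLC38A8.

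The cystine importer SLC7A11, also outside the naming rule, had a mean FPKM of 11 ± 0.276 with the control hairpin, 10.2 ± 0.526 with shTRIB3-1 and 6.51 ± 0.278 with shTRIB3-2 (SD, n = 3 each). Its log2 fold changes were -0.11 (limma adjusted p 0.065) and -0.75 (adjusted p 4.78e-08), and the hairpins differed by -0.64 (adjusted p 1.53e-06). GPT2, the mitochondrial alanine transaminase, fell from 57.4 ± 2.04 to 33.4 ± 1.20 and 34.4 ± 1.20 FPKM, where GPT did not pass with either hairpin. SLC7A11 and GPT2 were picked outside the naming rule, so the p values given here are a description and not a test.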
